A study of Mus musculus with 9 samples.

Results

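The immediate early genes described here are Npas4, the NR4A nuclear receptor genes Nr4a1, Nr4a2 and Nr4a3, Arc, the immediate early response genes Ier2, Ier3, Ier5 and Ier5l, and Srf, which are 10 of the 48526 genes in the count table. They were chosen by name, as the rows whose Ensembl identifier carries these symbols, and with earlier results of these data known. Npas4 was chosen on its difference between 0 h and 1 h, and each contrast uses libraries of these times, so its values are given as a description, with no test. The RNA-seq experiment followed neural stem cells (NSCs) from the subependymal zone (SEZ) of wild-type C57BL/6 mice, between 2 and 4 months old, at 3 time points with 3 replicates each. The 0 h cells were undifferentiated NSCs, from cultures expanded as neurospheres with EGF and FGF. Differentiation was induced on an adhesive substrate, Matrigel in the study's methods, with FGF and without EGF. The methods add that cells fixed soon after induction had first been seeded for a day in medium with both factors, and it is not stated whether this held for the RNA-seq cultures or whether the 0 h cells were attached. The effects of EGF withdrawal and of any dissociation or change of substrate therefore cannot be told apart here. The time course asks which genes respond when adult NSCs leave the undifferentiated state.

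Immediate early genes are transcribed soon after a signal reaches the cell, from transcription factors that are already present, and their mRNAs usually decay fast. Many of them carry a cAMP response element (CRE), which CREB binds, or a CArG box, which serum response factor (SRF) binds together with ternary complex factors or with MRTF proteins. In neurons they link synaptic activity and calcium entry to later gene expression, and in dividing cells growth factors such as EGF induce many of the same genes through the MAPK cascade. The members differ in what they do: NPAS4 and the NR4A proteins are transcription factors, ARC acts at synapses, and SRF is itself a regulator of immediate early genes.

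The promoters of Npas4 and the NR4A genes, and that of Srf with sites for its own protein, are shown first because they hold the motifs that the group is known for. RefSeq windows from 250 bases before to 50 bases after the annotated start (assembly GRCm38.p6) were found for 8 of the 10 genes, and not for Arc and Ier2. They were searched for the CRE core TGACG, the full CRE TGACGTCA, the EGR motif GCGGGGGCG, the AP-1 motif TGACTCA and the NR4A monomer site AAAGGTCA, all on both strands, for the CArG box, which reads the same way on both strands, and for TATAA on the strand of the gene. Positions count from the start, so that base -1 lies just before it. Below, capitals mark the CRE cores (TGACG, or CGTCA when it lies on the other strand) and, in Srf, also the CArG boxes. The Npas4 stretch, chr19:4990128-4990157 on the minus strand, holds bases -186 to -157 of the window and lies in a first exon of the GENCODE M21 annotation. The Nr4a1 stretch is chr15:101266596-101266845 on the plus strand, between exons of longer annotated transcripts, and the Nr4a2 stretch is chr2:57124004-57124253 on the minus strand. The Nr4a3 stretch is chr4:48045055-48045152 on the plus strand and the Srf stretch is chr17:46556176-46556412 on the minus strand, both ended at the first annotated exon.
Npas4: cgttcgaCGTCAcgggaTGACGtcggaagt
Nr4a1: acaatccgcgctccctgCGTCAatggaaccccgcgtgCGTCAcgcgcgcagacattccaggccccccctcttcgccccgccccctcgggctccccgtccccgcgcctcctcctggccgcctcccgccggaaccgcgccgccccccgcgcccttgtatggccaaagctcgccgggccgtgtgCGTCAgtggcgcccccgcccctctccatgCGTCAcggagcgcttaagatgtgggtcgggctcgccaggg
Nr4a2: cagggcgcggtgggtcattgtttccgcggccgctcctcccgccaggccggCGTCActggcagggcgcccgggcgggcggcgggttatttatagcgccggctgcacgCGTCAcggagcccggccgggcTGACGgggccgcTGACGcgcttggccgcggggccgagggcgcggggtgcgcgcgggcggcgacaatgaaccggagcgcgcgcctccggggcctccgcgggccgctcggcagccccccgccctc
Nr4a3: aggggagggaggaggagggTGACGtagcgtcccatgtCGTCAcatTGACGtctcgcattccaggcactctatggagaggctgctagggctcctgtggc
Srf: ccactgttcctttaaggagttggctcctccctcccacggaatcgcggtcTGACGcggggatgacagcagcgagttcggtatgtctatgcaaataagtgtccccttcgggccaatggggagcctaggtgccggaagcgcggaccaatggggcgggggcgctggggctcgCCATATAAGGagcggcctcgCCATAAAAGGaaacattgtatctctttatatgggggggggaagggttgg

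The windows of Nr4a1, Nr4a2 and Nr4a3 held 4 CRE cores each, of which 1 of Nr4a3, at -147, lies past the stretch shown. Among all 32851 windows of this length, 0.231% held at least 4 and 20.8% held at least 1. Npas4 had 2 CRE cores, at -179 and -169, a number reached by 5.01% of the windows, and Srf had 1. Ier3, Ier5 and Ier5l had 0. The Srf window had 2 CArG boxes, at -82 and -62, which 0.0183% of the windows reach, and the other 7 windows had 0. An EGR motif, found in 2.91% of all windows, lay in the windows of Nr4a1 and Srf. TATAA, found in 17.5% of all windows, lay in those of Npas4, Ier3, Ier5 and Srf, and in Srf it overlaps the CArG box at -82. Full CREs, AP-1 motifs and NR4A monomer sites, found in 1.79%, 5.20% and 1.51% of all windows, had no match in these 8. A match is a string of letters in the window and does not show that a protein binds there.

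**Figure D1:**
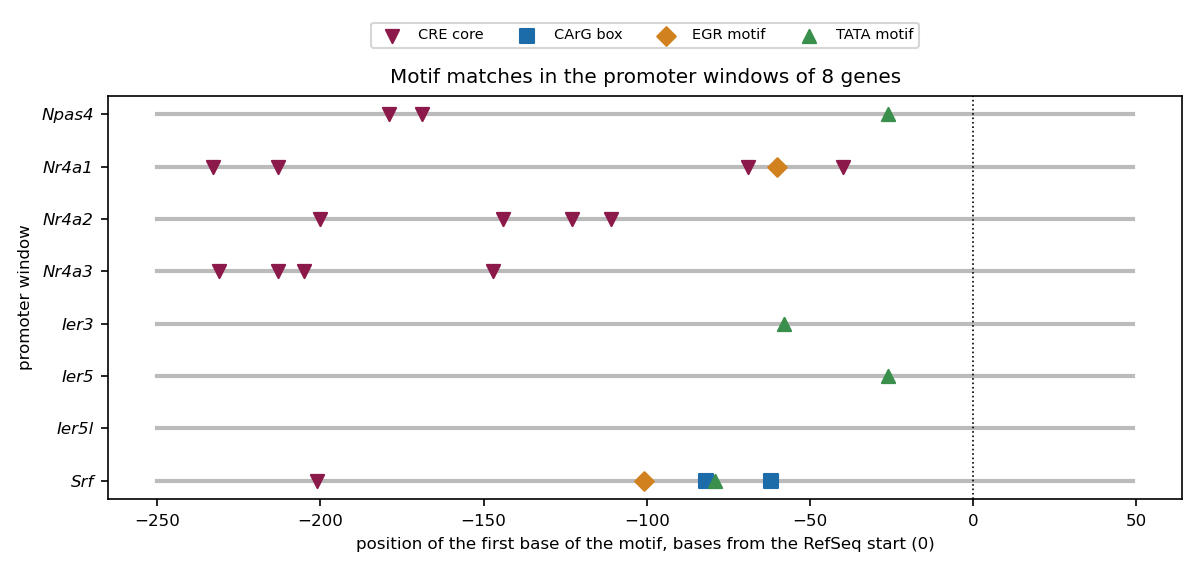
Motif matches in the promoter windows of the 8 genes with a RefSeq window. Each grey line is a window of 300 bases, the horizontal axis is the position of the first base of a match relative to the annotated start, and the symbols stand for the CRE core, the CArG box, the EGR motif and TATAA. CRE cores crowd the 3 NR4A windows with 4 each, and both CArG boxes are in Srf.

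The total count per library was between 65871454 and 105592597, and all 10 genes had between 17 and 7465 counts in each library, above the expression filter in 9 of 9 libraries. Levels are CPM, the counts of a gene relative to the size of the library after TMM scaling, whose factors lay between 0.97 and 1.02. All 10 NSC markers, such as Nes and Sox2, were expressed, with a summed level between 7631 and 10225 CPM over the 9 libraries. The sum of 8 neuron markers was 34.9 to 76.8 at 0 h, 41.4 to 80.6 at 1 h and 66.5 to 134 at 6 h, in CPM. The highest of these were Gad1, with means of 29.8, 29.6 and 28.8 CPM at 0, 1 and 6 h, and Syt1, with 22.8, 26.6 and 70.3 CPM. Slc17a6 was at 0 in all 9 libraries, and Slc32a1 stayed under 0.1 CPM. The 8 microglia markers summed to at most 0.570 CPM, with Itgam and C1qa at 0 in all libraries. The sums of endothelial and mural, mature oligodendrocyte and ependymal markers were 5.97 to 16.8, 49.0 to 118 and 49.9 to 101 CPM. Most of the oligodendrocyte sum was Cnp, with time point means of 61.4 to 83.4 CPM, while those of Mbp, Mog, Mag and Mobp were at most 0.860 CPM. Most of the ependymal sum was Foxj1, with means of 46.7 to 64.9 CPM, while those of Ccdc153, Tmem212, Rarres2 and Dynlrb2 were at most 1.65 CPM.

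Tests are edgeR quasi-likelihood tests over 18858 genes, and a gene is called when its p after Benjamini-Hochberg adjustment (BH-adjusted p) is under 0.05. SE stands for standard error. The first fit used time point alone. Since replicates with 1 number departed in the same direction from their group means, a second fit, which takes this number as a block, stands beside it wherever it changes a call. What libraries of 1 number share is not stated, and nothing states that they came from separate animals. The p-values of the first fit therefore measure the spread between these samples. Those of the block fit measure the spread that is left once differences between replicate numbers are taken out. The contrasts share libraries: 0 h serves as the control of both 1 h and 6 h. In bulk RNA a change of level and a change in the share of cells that express the gene cannot be told apart.

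By direction within replicate pairs, Nr4a1, Nr4a2, Nr4a3, Ier3, Ier5l and Srf were higher at 1 h in 3 of 3 replicate pairs. Arc and Ier2 were lower in 3 of 3, and Ier5 was mixed. Npas4 was also higher in 3 of 3, but it was chosen on this difference, so its direction is given as a description. The libraries of 1 h and 0 h did not overlap in Nr4a1 and Nr4a2, nor in Npas4, and overlapped in the other 7 genes. At 6 h only Npas4, Nr4a1 and Nr4a2 were above 0 h in 3 of 3 pairs, and the other 7 were below it in 3 of 3 pairs. From 1 h to 6 h, Nr4a2 was higher at 6 h in 3 of 3 pairs by small amounts. The other genes were lower at 6 h in 3 of 3 pairs, where the place of Npas4 again goes with its choice. The share of all genes with such pair directions or non-overlapping libraries is not given here, so these counts are a description only.

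**Figure D2:**
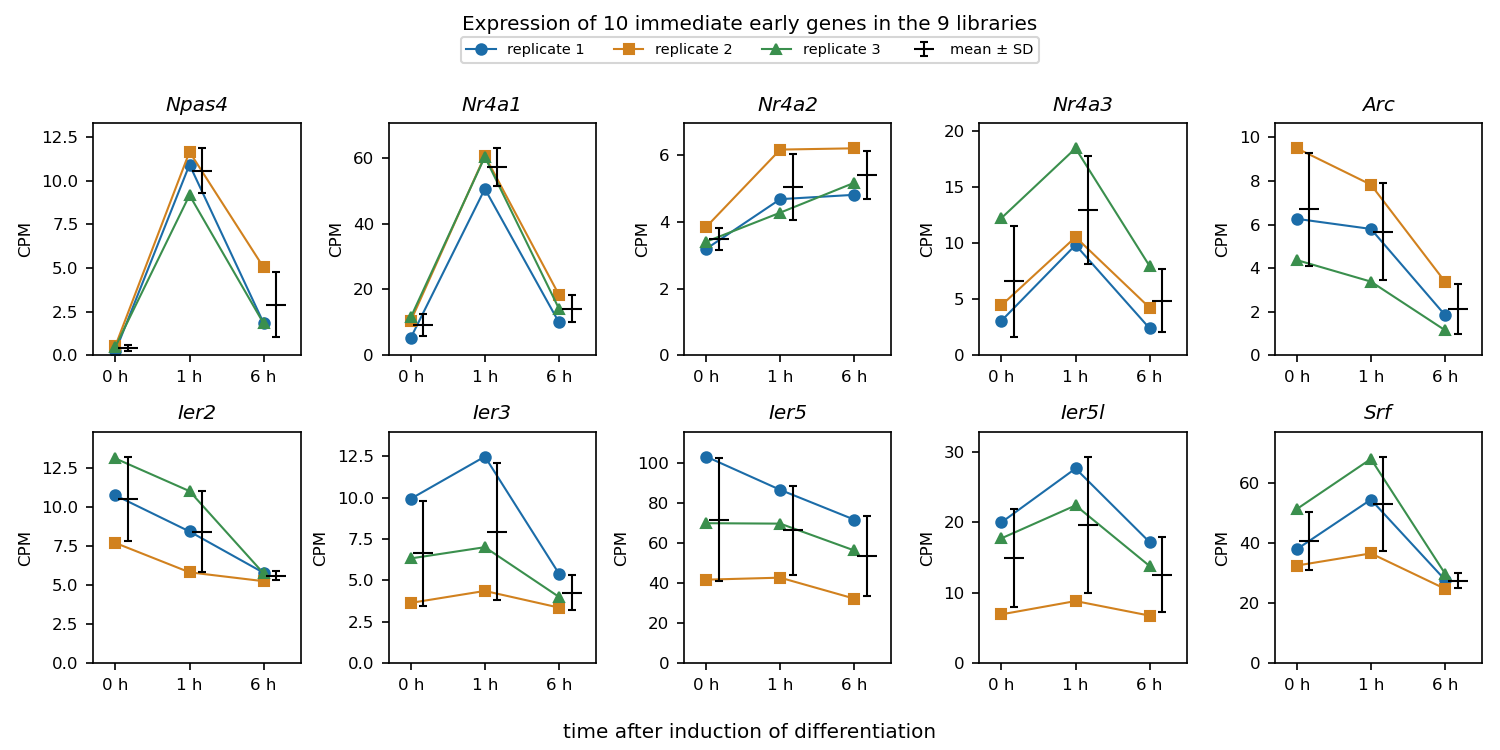
Level of each of the 10 genes in CPM (vertical axis, linear and from 0, with its own scale in each panel) at 0, 1 and 6 h. Coloured lines join the libraries of 1 replicate number, and black bars give the mean ± SD of 3 libraries. Npas4 and Nr4a1 peak at 1 h, Nr4a2 stays up at 6 h, Arc and Ier2 are lower at each later time, and in Ier3, Ier5 and Ier5l the lines keep their order, with replicate 1 highest and replicate 2 lowest.

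The number of members called depended on the fit. At 1 h against 0 h, edgeR without the block called 0 of the 9 members tested as higher, where 0.0424% of all tested genes were called higher. At an unadjusted p under 0.05 there were 2, Nr4a1 and Nr4a2, and DESeq2 called 1, Nr4a1. With the block 5 of 9 were called higher (Nr4a1, Nr4a2, Nr4a3, Ier5l and Srf), against 1.36% of all genes. As lower at 1 h, edgeR called 0 of 9 members without the block, against 0% of all genes, and 0 of 9 with it, against 2.14%. The counts at an unadjusted p under 0.05 were 0 and 2, and DESeq2 called 0.

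At 6 h against 0 h, edgeR called 0 of 9 members higher without the block, where 1.46% of all genes were. At an unadjusted p under 0.05 there was 1, Nr4a2, and DESeq2 called 1, also Nr4a2. With the block 2 of 9 were higher (Nr4a1 and Nr4a2), with 17.4% of all genes. As lower, 0 of 9 were called by edgeR without the block, where 0.955% of all genes were. There 3 had an unadjusted p under 0.05, and DESeq2 called 2, Arc and Ier2. With the block 6 of 9 were lower (Arc, Ier2, Ier3, Ier5, Ier5l and Srf), against 17.5% of all genes.

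At 6 h against 1 h, 1 of 9 members was called lower without the block (Nr4a1, with 0.663% of all genes) and 8 of 9 with it, all but Nr4a2, against 17.5% of all genes. As higher, edgeR called 0 of 9 members in either fit, where 1.48% of all genes were called without the block and 18.0% with it. The count at an unadjusted p under 0.05 was 0 in that direction, and DESeq2 called 0. Over all 18858 genes the median log2 fold change was between -0.00383 and 0.00122 in the 3 contrasts of both fits.

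**Figure D3:**
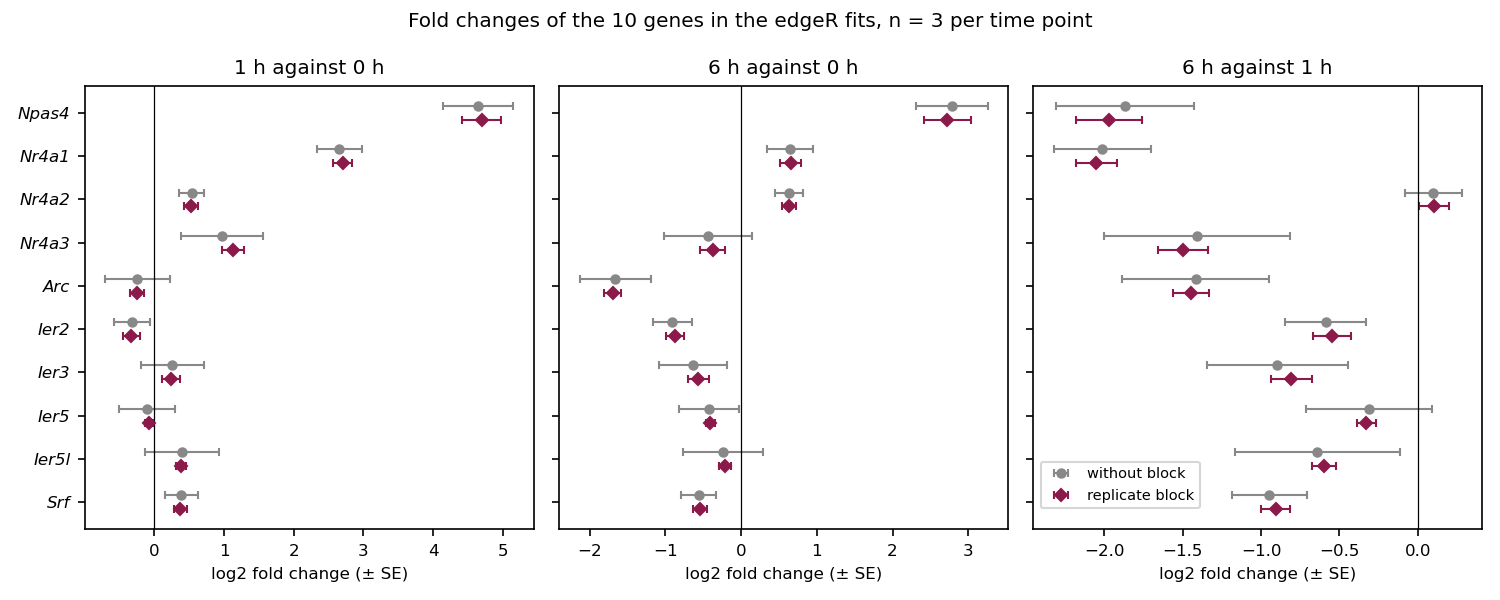
Log2 fold changes (horizontal axes, with a scale of their own in each panel) of the 10 genes in the 3 contrasts, with bars of 1 standard error. Grey circles are the edgeR fit with time point alone and red diamonds the fit with the replicate block, each on 3 libraries per time point. Both fits put the genes at nearly the same fold change, and the bars of the block fit are shorter.

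Npas4 (ENSMUSG00000045903, chromosome 19, 4984355 to 4990316) encodes a bHLH-PAS transcription factor that is known from neurons, where calcium entry induces it and it pairs with ARNT proteins to regulate activity-dependent genes. Its level at 0 h was 0.235, 0.541 and 0.487 CPM in replicates 1, 2 and 3, which rests on 17, 40 and 34 counts. At 1 h it was 10.9, 11.6 and 9.16 CPM, and at 6 h it was 1.85, 5.03 and 1.82 CPM. The libraries of the 3 time points did not overlap, and replicate 2 was the highest at each time. The mean was 0.421 ± 0.163 CPM before differentiation, 10.6 ± 1.27 CPM after 1 h and 2.90 ± 1.84 CPM after 6 h (± SD of 3 libraries). The log2 difference of 1 h from 0 h, on which Npas4 was chosen, was 4.65 (SE 0.51), with pair values of 5.54, 4.43 and 4.23. The log2 difference of 6 h from 1 h was -1.87 (SE 0.44). The log2 difference of 6 h from 0 h was 2.78 (SE 0.47), with pair values of 2.97, 3.22 and 1.90. It was 2.12 without 6 h replicate 2, the highest 6 h library.

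The genes whose pattern was most like that of Npas4 were Prickle1, Zfp36, Nfil3, Gm45515 and Nfkbiz, with Pearson's r of log2 CPM between 0.95 and 0.98 over the 9 libraries, among 13596 genes with a mean of at least 1 CPM. The 9 points share 3 time points and 3 replicate numbers. Prickle1, a planar cell polarity gene, had means of 3.18, 10.3 and 6.12 CPM at 0, 1 and 6 h. Nfkbiz, which encodes a nuclear IκB protein, had means of 25.6, 170 and 48.5 CPM, and Nfil3, a bZIP repressor gene, had 4.65, 22.5 and 9.98 CPM. The partners that NPAS4 pairs with were present at all times. Arnt2 had means of 236, 238 and 254 CPM and Arnt had 58.7, 56.2 and 64.8 CPM. Of these, Arnt was called higher at 6 h against 0 h with the block (log2 fold change 0.14, SE 0.05, edgeR BH-adjusted p = 0.0393), as were 17.4% of all genes. Neither Arnt nor Arnt2 was called at 1 h.

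Arc (ENSMUSG00000022602, chromosome 15, 74669083 to 74672570), like Npas4 a marker of active neurons, encodes a protein that removes AMPA receptors from synapses. At 6 h its libraries lay below those of 0 h, where those of Npas4 lay above. Arc had 6.26, 9.50 and 4.37 CPM in replicates 1, 2 and 3 at 0 h, and 5.80, 7.83 and 3.38 CPM at 1 h. At 6 h it had 1.85, 3.38 and 1.15 CPM. The replicates kept their order at each time, with replicate 2 highest, and each 6 h library was below each 0 h library. The log2 difference of 1 h from 0 h was -0.25 with the block (SE 0.10, edgeR BH-adjusted p = 0.219). Against 0 h, the log2 fold change at 6 h was -1.66 without the block (SE 0.47, edgeR BH-adjusted p = 0.113). With the block Arc fell at 6 h, with a log2 fold change of -1.70 (SE 0.11, edgeR BH-adjusted p = 2.95e-07).

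The NR4A genes encode orphan nuclear receptors that act without a known natural hormone, and whose activity is set largely by how much protein is made. Nr4a1 (Nur77, ENSMUSG00000023034, chromosome 15, 101254269 to 101274795) had 5.28, 10.5 and 11.5 CPM in replicates 1, 2 and 3 at 0 h, 50.6, 60.7 and 60.4 CPM at 1 h, and 9.99, 18.4 and 14.2 CPM at 6 h. Each 1 h library was above each library of the other times, while the 0 h and 6 h libraries overlapped. The mean went from 9.10 ± 3.35 to 57.2 ± 5.73 CPM (± SD of 3 libraries), a mean within-pair ratio of 6.62. The log2 fold change at 1 h was 2.65 without the block (SE 0.32, edgeR BH-adjusted p = 0.0501), just outside the threshold. Without a filter on low counts it was called (edgeR BH-adjusted p = 0.0125). It was not called in a fit of only the 6 libraries compared (edgeR BH-adjusted p = 0.120) or in any of the 9 leave-one-out fits, where the edgeR BH-adjusted p ran from 0.0598 to 0.241. With the block Nr4a1 rose by 2.71 on the log2 scale (SE 0.14, edgeR BH-adjusted p = 3.36e-07). It was called higher in 3 of 3 block fits that left out a replicate number.

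From 1 h to 6 h Nr4a1 fell by 2.01 on the log2 scale (SE 0.31, edgeR BH-adjusted p = 0.0215, without the block). This call was kept in 4 of the 9 leave-one-out fits and was lost without any of the 1 h libraries, without 6 h replicate 1 or without 6 h replicate 3, with an edgeR BH-adjusted p of up to 0.0938. It was also lost in a fit of only the 6 libraries compared (edgeR BH-adjusted p = 0.0527). At 6 h a small excess over 0 h remained in 3 of 3 pairs, with a mean ratio of 1.60. Its log2 value was 0.64 without the block (edgeR BH-adjusted p = 0.322) and 0.65 with it (SE 0.14, edgeR BH-adjusted p = 0.00248). Adamts1, Gem and Noct were most like Nr4a1, with r of log2 CPM of 0.99, 0.96 and 0.96 over the 9 libraries. Gem, which encodes a small GTPase that restrains calcium channels, had means of 2.32, 15.3 and 2.83 CPM at 0, 1 and 6 h.

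Nr4a2 (Nurr1, ENSMUSG00000026826, chromosome 2, 57106830 to 57124003), which dopaminergic neurons need to develop, was the member that did not come down after 1 h. It had 3.19, 3.85 and 3.41 CPM in replicates 1, 2 and 3 at 0 h, 4.69, 6.18 and 4.28 CPM at 1 h, and 4.82, 6.22 and 5.18 CPM at 6 h. Each 1 h and each 6 h library was above each 0 h library, and the 1 h and 6 h libraries overlapped. In the block fit Nr4a2 rose by 0.53 on the log2 scale at 1 h (SE 0.10, edgeR BH-adjusted p = 0.0106) and stood 0.63 above 0 h at 6 h (SE 0.10, edgeR BH-adjusted p = 0.000296). Without the block the adjusted p values were 1.00 and 0.116. The 1 h call was lost in the block fits without replicate 1 or without replicate 2, where the edgeR BH-adjusted p reached 0.191. The difference of 6 h from 1 h was 0.10 on the log2 scale with the block (SE 0.09, edgeR BH-adjusted p = 0.431).

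Nr4a3 (Nor1, ENSMUSG00000028341, chromosome 4, 48045153 to 48086447) was highest at 1 h in each replicate. It had 3.07, 4.45 and 12.2 CPM in replicates 1, 2 and 3 at 0 h, 9.81, 10.5 and 18.4 CPM at 1 h, and 2.39, 4.22 and 7.93 CPM at 6 h. Replicate 3 was the highest at each time, and its 0 h library was above the 1 h libraries of replicates 1 and 2. With the block Nr4a3 rose by 1.13 on the log2 scale at 1 h (SE 0.16, edgeR BH-adjusted p = 0.00168) and fell from 1 h to 6 h, at -1.50 (SE 0.16, edgeR BH-adjusted p = 1.93e-05). Without the block these values were 0.97 and -1.41, with adjusted p values of 1.00 and 0.264. Against 0 h, the log2 difference at 6 h was -0.37 with the block (SE 0.17, edgeR BH-adjusted p = 0.101). Without replicate 1 this difference was past the threshold (edgeR BH-adjusted p = 0.0448). Of the RXR receptors that pair with NR4A1 and NR4A2, Rxra had means of 42.2, 42.3 and 40.1 CPM and Rxrb had 28.3, 29.5 and 28.0 CPM at 0, 1 and 6 h. Rxrg did not pass the expression filter, and 0 of these 2 tested genes were called by edgeR in any contrast of either fit.

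The IER genes share a name from their early induction by serum and growth factors. IER2 is a small nuclear protein, IER3 affects cell survival under stress, and IER5 acts with the phosphatase PP2A on the heat shock factor HSF1, and IER5L is related to it in sequence. Ier5 (ENSMUSG00000056708, chromosome 1, 155096361 to 155099636) had the highest mean CPM of the members at each time. At 0 h it had 103, 41.8 and 70.0 CPM in replicates 1, 2 and 3. It had 86.6, 42.8 and 69.7 CPM at 1 h and 71.7, 32.3 and 56.4 CPM at 6 h. The highest and lowest 0 h libraries differed 2.47 times, while the mean within-pair ratio of 6 h to 0 h was 0.757. Each pair was lower at 6 h, and with the block Ier5 fell by 0.40 on the log2 scale (SE 0.06, edgeR BH-adjusted p = 0.000201). Without the block the adjusted p was 0.670, and at 1 h the log2 difference was -0.08 with the block (edgeR BH-adjusted p = 0.532).

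Ier5l (ENSMUSG00000089762, chromosome 2, 30471537 to 30474219) had 19.98, 6.95 and 17.7 CPM in replicates 1, 2 and 3 at 0 h, 27.6, 8.83 and 22.4 CPM at 1 h, and 17.2, 6.77 and 13.8 CPM at 6 h. Replicate 2 stood far below the others at each time. With the block Ier5l rose by 0.38 at 1 h (SE 0.08, edgeR BH-adjusted p = 0.0139) and was lower than at 0 h by 6 h, at -0.21 (SE 0.08, edgeR BH-adjusted p = 0.0454), both on the log2 scale. Without the block the adjusted p values were 1.00 and 0.888. The 1 h call was lost without replicate 1 or replicate 2, with an edgeR BH-adjusted p of up to 0.119, and the 6 h call was lost without replicate 1 or replicate 3, with up to 0.270.

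Ier3 (ENSMUSG00000003541, chromosome 17, 35821684 to 35822923) had 9.93, 3.65 and 6.33 CPM in replicates 1, 2 and 3 at 0 h, 12.5, 4.37 and 7.01 CPM at 1 h, and 5.42, 3.37 and 4.01 CPM at 6 h. All pairs were higher at 1 h, and the log2 difference was 0.24 with the block (SE 0.13, edgeR BH-adjusted p = 0.337). At 6 h Ier3 fell below 0 h by 0.56 with the block (SE 0.13, edgeR BH-adjusted p = 0.00539), a call lost without replicate 1 (edgeR BH-adjusted p = 0.0567) and absent without the block (0.534). Ier3, Ier5 and Ier5l had the same order of replicates at each time, with replicate 1 highest and replicate 2 lowest.

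Ier2 (ENSMUSG00000053560, chromosome 8, 84661331 to 84662852) was the IER gene with non-overlapping libraries. It had 10.8, 7.72 and 13.1 CPM in replicates 1, 2 and 3 at 0 h, 8.45, 5.84 and 11.0 CPM at 1 h, and 5.81, 5.27 and 5.77 CPM at 6 h. The 6 h libraries lay close together, below each library of 0 h and 1 h. Against 0 h, the log2 fold change at 6 h was -0.91 without the block (SE 0.26, edgeR BH-adjusted p = 0.113), and with the block Ier2 fell by 0.88 (SE 0.12, edgeR BH-adjusted p = 0.000115). At 1 h the log2 difference was -0.33 with the block (SE 0.12, edgeR BH-adjusted p = 0.158). Fam118a, Naf1 and Rrp36 were most like Ier2, with r of log2 CPM between 0.96 and 0.98 over the 9 libraries. Fam118a had means of 29.5, 26.1 and 21.3 CPM at 0, 1 and 6 h.

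Srf (ENSMUSG00000015605, chromosome 17, 46548329 to 46556175), whose promoter holds the 2 CArG boxes shown above, had 38.0, 32.5 and 51.3 CPM in replicates 1, 2 and 3 at 0 h, 54.5, 36.6 and 68.0 CPM at 1 h, and 27.8, 24.8 and 29.9 CPM at 6 h. Each 6 h library was below each library of 0 h and 1 h, and the libraries of 0 h and 1 h overlapped. With the block Srf rose by 0.37 on the log2 scale at 1 h (SE 0.09, edgeR BH-adjusted p = 0.0448), a call lost without replicate 1 or replicate 3, with an edgeR BH-adjusted p of up to 0.172. Below 0 h it fell by 0.54 at 6 h with the block (SE 0.09, edgeR BH-adjusted p = 0.000651). Without the block the adjusted p values were 1.00 and 0.259. The gene overlaps Gm26904 on the opposite strand and Mir6976 on its own strand, with 0 shared exon bases and at most 9 counts in any library, against at least 2049 for Srf. Dnlz, Usp39 and Dctpp1 were most like Srf, with r of log2 CPM of 0.97 each over the 9 libraries, and Dctpp1 had means of 31.7, 35.6 and 25.2 CPM at 0, 1 and 6 h.

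Of 5 tested genes for the proteins that act with SRF, Mrtfb was called lower at 1 h with the block, where 2.14% of all genes were (log2 fold change -0.33, SE 0.06, edgeR BH-adjusted p = 0.0113). By 6 h, against 0 h, Elk4 and Mrtfb were lower (both -0.32 on the log2 scale with the block) and Mrtfa was higher (0.28), 3 calls among 5 genes where 17.5% of all genes were called lower and 17.4% higher. Without the block 0 of 5 were called by edgeR in any contrast. Of 17 cytoskeletal genes known as SRF targets, 2 were called higher and 0 lower at 1 h with the block, where 1.36% and 2.14% of all genes were, with a median log2 fold change of 0.10 beside 0.000657 over all genes. These were Filip1l (0.63, SE 0.15) and Acta2, smooth muscle actin (0.24, SE 0.05). By 6 h, 10 of 17 were lower and 2 higher with the block, against 17.5% and 17.4% of all genes, with a median of -0.25 on the log2 scale. Acta2 went from a mean of 77.2 to 36.6 CPM (log2 fold change -1.06, SE 0.05, edgeR BH-adjusted p = 4.13e-08, with the block). Tagln, Zyx, Filip1l and Vcl, which encode proteins bound to actin filaments or their anchors, had log2 fold changes of -0.88, -0.73, -0.69 and -0.59 in the same fit. Without the block 0 of 17 were called by edgeR in any contrast. Acta2 and Tagln are also expressed by mural cells. Of 8 endothelial and mural markers 5 were tested. At 6 h against 0 h with the block 3 were lower and 1 higher, where 17.5% and 17.4% of all genes were. Their median was -0.77 on the log2 scale, and without the block 0 of 5 were called by edgeR. The list pools both cell types, and the means of its mural genes Pdgfrb and Rgs5 moved in opposite directions. For Pdgfrb the 0 h and 6 h means were 0.165 and 2.12 CPM (SD 2.47 for 6 h), and for Rgs5 1.99 and 1.18. Among endothelial genes, these means were 7.67 and 3.92 for Flt1, 1.19 and 0.645 for Tek, and 0.220 and 0.267 for Pecam1. The summed level of the 8 markers was 6.85 to 16.8 CPM at 0 h and 5.97 to 9.38 CPM at 6 h. Cldn5 and Cdh5 stayed under 0.1 CPM, and the part of the 8 markers in the values of the cytoskeletal genes was not tested.

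Between genes, levels are compared as CPM per kb of merged exons. At 0 h Ier5 was highest with 21.9 ± 9.38, followed by Srf with 14.0 ± 3.34, whose libraries overlapped with those of Ier5 and lay above those of Ier2 (6.92 ± 1.78). From Ier2 down to Nr4a2, each gene overlapped with the next in the order Ier2, Ier3, Ier5l, Nr4a1, Arc, Nr4a3 and Nr4a2. Npas4 was lowest with 0.102 ± 0.0394 and apart from Nr4a2 (0.858 ± 0.0827). At 1 h Nr4a1 stood at 16.3 ± 1.63, within the range of Srf (18.3 ± 5.45) and Ier5 (20.3 ± 6.75) and above Ier5l (7.30 ± 3.61). Npas4 then reached 2.56 ± 0.308, with libraries that overlapped with those of Nr4a3 (2.16 ± 0.799) and lay below those of Ier2. At 6 h Ier5 and Srf were again highest, Nr4a1 had returned to 4.04 ± 1.20 among the IER genes, and Nr4a2 (1.33 ± 0.179), Nr4a3 (0.810 ± 0.472), Npas4 (0.701 ± 0.446) and Arc (0.695 ± 0.373) closed the order, each overlapping with the next. Errors are SD over 3 libraries. With the longest transcript as the length, Nr4a1 was at 3.56, 22.4 and 5.56 CPM per kb at 0, 1 and 6 h. Its 1 h mean was then above that of Ier5, which has the same length by either measure.

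**Figure D4:**
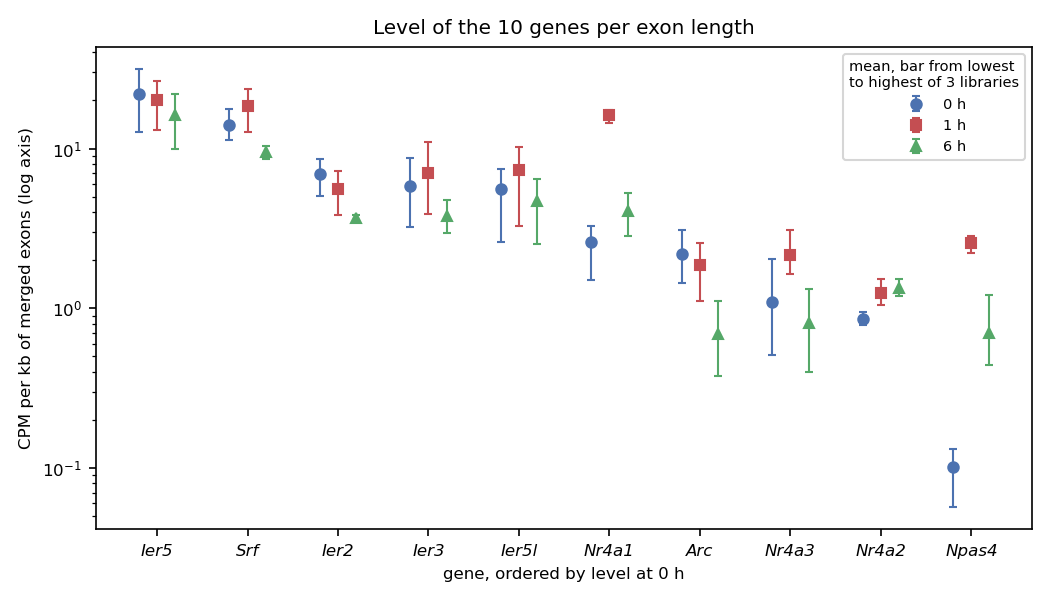
Level of the 10 genes per kb of merged exons (vertical log axis, CPM per kb), with genes ordered by their level at 0 h. Symbols are means of 3 libraries at 0, 1 and 6 h, and bars run from the lowest to the highest library. Npas4 starts below all others at 0.102 and passes Nr4a2 at 1 h, while Nr4a1 reaches the range of Ier5 and Srf.

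Other genes of the same systems were taken from lists chosen with earlier results known. Of 14 tested activity-regulated effector genes, 6 were called higher and 0 lower at 1 h with the block, against 1.36% and 2.14% of all genes. Their median log2 fold change was 0.13. Ptgs2, the inducible prostaglandin synthase, had the largest change, from a mean of 0.177 to 1.25 CPM (log2 fold change 2.81, SE 0.30, edgeR BH-adjusted p = 0.000190). Rgs2, a regulator of G protein signalling, went from 13.2 to 34.0 CPM (1.35, SE 0.09). Scg2, Bdnf, the neurotrophin known as a target of NPAS4, and Per1 followed with log2 values of 0.72, 0.65 and 0.63. At 6 h against 0 h 2 were higher (Rgs2 at 0.57 and Nptx2 at 0.32) and 2 lower (Homer1 at -0.48 and Plk2 at -0.21) with the block, shares near the 17.4% and 17.5% of all genes. Without the block 0 of 14 were called at 1 h by edgeR. Homer1 was the 1 gene called at 6 h against 0 h (edgeR BH-adjusted p = 0.0446), where 0.955% of all genes were called lower.

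Another list held 12 genes for CREB family factors, CRTC coactivators, CBP, p300 and the SIK kinases that hold CRTCs back. At 1 h with the block 1 of 12 was called, where 2.14% of all genes were called lower and 1.36% higher. This was Sik1, which was lower at a log2 fold change of -0.52 (SE 0.08, edgeR BH-adjusted p = 0.00356). Sik1 was also lower at 6 h against 0 h, at -0.58. In that contrast Crebbp, Ep300 and Crtc2 were higher, at 0.27, 0.23 and 0.19, and Atf1 and Sik3 were lower, at -0.26 and -0.14. With Sik1 this makes 3 calls in each direction among 12 genes, where 17.4% of all genes were higher and 17.5% lower. The median of the list was -0.05 at 1 h and 0.03 at 6 h on the log2 scale, and without the block 0 of 12 were called by edgeR in any contrast.

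Of 32 other immediate early genes outside the 10 described here, 4 were called higher and 0 lower at 1 h without the block (Fosb, Nfkbiz, Gadd45b and Nfil3), and 14 higher and 5 lower with it. Over all genes these shares were 0.0424% and 0% without the block, and 1.36% and 2.14% with it. In both fits 22 of the 32 had a positive log2 fold change at 1 h, so the direction was mixed. The means of Jun, Egr1, Myc and Klf10 were lower at 1 h than at 0 h, from 147 to 78.2, 60.8 to 28.8, 109 to 76.0 and 106 to 74.6 CPM. At 6 h against 0 h 4 were higher and 8 lower without the block, against 1.46% and 0.955% of all genes. With the block 7 were higher, against 17.4% of all genes, and 17 lower, against 17.5%. The median log2 fold change with the block was 0.22 at 1 h and -0.36 at 6 h. From 1 h to 6 h 22 were lower and 3 higher with the block, against 17.5% and 18.0% of all genes, with a median of -0.79. Beside the fall of Arc and Srf at 6 h, Egr3, Egr2 and Egr1 were lower, at log2 fold changes of -3.82, -3.13 and -1.98 against 0 h in the block fit. Of the 8 neuron markers, 5 were tested and 0 were called at 1 h by edgeR in either fit. At 6 h against 0 h, 0 of 5 were called by edgeR without the block, where 1.46% of all genes were higher. With the block 3 of 5 were higher, against 17.4% of all genes. Their log2 fold changes were 1.63 for Syt1, 1.23 for Rbfox3 and 0.50 for Snap25. At 6 h these 3 genes had means of 70.3, 5.48 and 2.55 CPM, with SDs of 38.5, 3.42 and 2.17. Gad1 had means of 29.8 CPM at 0 h and 28.8 CPM at 6 h. The part of the neuron markers in the values of Npas4, Arc and Nr4a2 at 6 h was not tested.

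**Figure D5:**
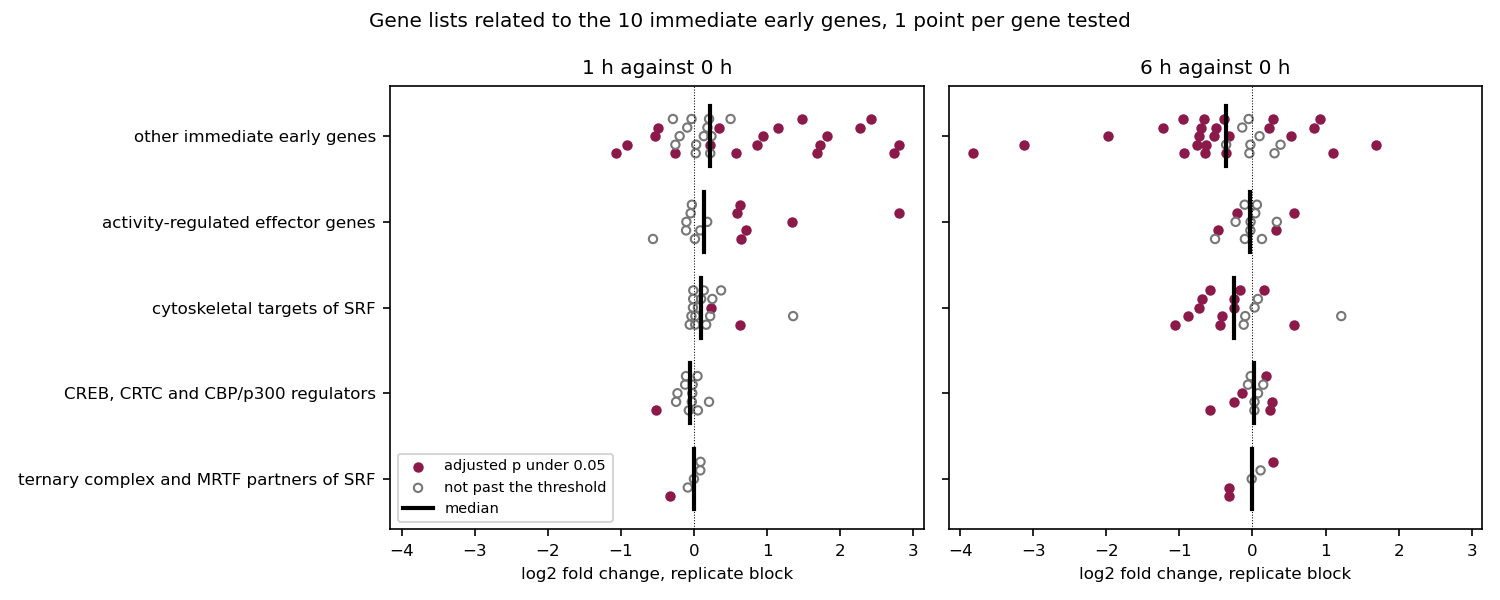
Log2 fold changes with the replicate block (horizontal axes) at 1 h and at 6 h against 0 h for 5 lists of related genes, 1 point per tested gene. Filled points have an edgeR BH-adjusted p under 0.05, open points do not, and the vertical bars are medians. The other immediate early genes spread widest, with medians of 0.22 at 1 h and -0.36 at 6 h, and most cytoskeletal SRF targets lie below 0 at 6 h.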

How the data were processed

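Total RNA of cultured SEZ NSCs was sequenced by the authors as stranded mRNA libraries. They assessed reads with FastQC, aligned and counted them with STAR 2.5.3a on mm10 (GRCm38), and deposited raw counts per Ensembl gene for 9 libraries. The submitters' processing notes also name DESeq2 1.22.1. The strand setting is not given in the sources used here. Symbols, positions and exon lengths came from GENCODE M21 (48144 of 48526 identifiers matched).

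The software was edgeR 4.0.16, DESeq2 1.42.0 and limma 3.58.1 under R 4.3.3, with tables and figures from Python 3.11.15 (pandas 2.3.3, numpy 2.4.6, matplotlib 3.10.9). Genes passed filterByExpr (minimum count 10, total 15), libraries were scaled with TMM, and all 9 were fitted with glmQLFit and glmQLFTest on time point, with Benjamini-Hochberg adjustment over 18858 genes. Standard errors were derived from the F statistic, and log2 CPM used a prior count of 2. The scripts were tested on simulated data.

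Replicate numbers come from the labels. After subtraction of time point means, libraries with the same number correlated at 0.733 to 0.800 (9 pairs) and others at -0.462 to -0.314 (18 pairs), so the numbers pair the samples. The block lowered the common biological coefficient of variation from 0.277 to 0.0627. Chi-square values per degree of freedom within time points were at least 86.6, more than sampling noise gives for repeats of 1 library.

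The members and lists were chosen with earlier results of these data known. The genes named are the 10 members, the 5 genes most correlated with Npas4 and 3 each with Nr4a1, Ier2 and Srf, and up to 5 called genes with the largest change per list and contrast. Some further list genes are given by their levels. Splicing and nuclear retention were not analysed here. The alternatives were the replicate block, DESeq2 with and without it, RLE scaling, no filter on low counts, fits of only the 6 libraries compared, and leaving out each library or replicate number.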

Additional observations from a re-analysis of the deposited data

Results flagged for a closer look

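A difference between the responses at 1 h and at 6 h, tested by the contrast of 6 h with 1 h in edgeR with Benjamini-Hochberg adjustment, drew attention to 5 genes. Nr4a1 fell by 2.01 on the log2 scale from 1 h to 6 h without the block, lower in 3 of 3 pairs. The other 4 genes were above 0 h in 3 of 3 pairs at 1 h and below 0 h in 3 of 3 pairs at 6 h, and passed the threshold between 1 h and 6 h with the replicate block. Their log2 fold changes from 1 h to 6 h were -1.50 for Nr4a3, -0.81 for Ier3, -0.60 for Ier5l and -0.91 for Srf. A place above 0 h at 1 h and below it at 6 h puts 6 h below 1 h in each pair. The contrast is therefore no separate support for that pattern. With the block 17.5% of all genes were called lower in it, as were Arc, Ier2 and Ier5. Neither the rise of Ier3 at 1 h nor the position of Nr4a3 below 0 h at 6 h passed the threshold in its own contrast.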

How the results depend on the processing

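With the replicate block in edgeR, and equally in DESeq2 with the block, the number of the 9 tested members called was 5 higher at 1 h against 0 h, 2 higher and 6 lower at 6 h against 0 h, and 8 lower at 6 h against 1 h. Block fits without 1 replicate number called 2 to 4, 2, 5 to 6 and 8. DESeq2 without the block called 1, 1, 2 and 3 in the same order. RLE scaling left these counts as without the block. Without a filter on low counts 1 was higher at 1 h. Fits of only the 6 libraries compared called 0 lower at 6 h against 1 h, and fits that left out 1 library called 0 to 1 there. Some differences that were not past the threshold without the block changed sign when 1 library was left out. Over these fits the log2 difference of 1 h from 0 h ran from -0.55 to 0.10 for Arc, -0.22 to 0.67 for Ier3 and -0.38 to 0.25 for Ier5. That of 6 h from 0 h ran from -0.99 to 0.37 for Nr4a3 and -0.58 to 0.0644 for Ier5l, and that of 6 h from 1 h from -0.0104 to 0.27 for Nr4a2. With the block and without replicate 1, Ier5 was at 0.0224 at 1 h. The cause was not tested. Of the 5 genes most like Npas4, 3 stayed with CPM in place of log2 CPM. With the longest transcript as the length, Nr4a1 (3.56, 22.4 and 5.56 at 0, 1 and 6 h), Nr4a2 (0.977 at 0 h and 1.51 at 6 h) and Srf (10.5 at 6 h) moved by more than 1 SD in CPM per kb. The lowest counts, 17 to 40 for Npas4 at 0 h, limit the precision of its fold changes.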
